A study of Mus musculus with 19 samples.

Results

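The expression of 9 genes that mark lymphocytes was followed in RNA sequencing libraries from the cornea and conjunctiva of C57BL/6 mice, of the C57BL/6J substrain by the study's methods. They made up 9 of the 24552 genes in each tissue's table and were taken by symbol: *Ptprc*, *Cd3d*, *Cd3e*, *Cd3g*, *Cd4*, *Cd8a*, *Cd79a*, *Cd79b* and *Ms4a1*. Earlier results of these data were known when they were chosen. All 9 were present in both tables. The cornea gave 5 libraries from mice fed ad libitum (AL) and 5 from mice on calorie restriction (CR), and the conjunctiva gave 4 AL and 5 CR libraries. One legend of the study gives the conjunctiva sizes the other way round, while another legend matches the labels, which were followed here. All mice were female by the methods. The study describes mice that were adult when the diets began and stayed on them for months, whereas the series' design text calls them young. The library titles of both diets carry the codes 6M and 50W, which the labels do not explain. By the methods, the cornea libraries hold scraped corneal epithelium and the conjunctiva libraries hold the excised tissue. CR mice received a ration that was lowered in steps, given daily shortly before the dark period. The methods describe more than 1 cohort, and in one of them the CR chow was also enriched in vitamins and micronutrients, so that diet quantity and composition cannot be told apart there. Which cohort these libraries came from was not given in the sources used here. Libraries are named below by tissue, diet and the number in their title.

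Lymphocytes recognize antigen through receptors that are built by gene rearrangement and that cannot signal alone. In T cells the receptor sits in a complex with the CD3 gamma, delta and epsilon chains, whose cytoplasmic tails carry the signal, and the coreceptors CD4 and CD8 bind major histocompatibility complex (MHC) class II and class I molecules. In B cells, surface immunoglobulin signals through the Ig-alpha and Ig-beta chains, which are encoded by *Cd79a* and *Cd79b*, and *Ms4a1* encodes CD20. *Ptprc* encodes CD45, a phosphatase on all white blood cells that sets the activity of the Src family kinases at both receptors. It is therefore not confined to lymphocytes, and in the mouse *Cd4* and *Cd8a* are also carried by subsets of dendritic cells. The healthy corneal epithelium harbors few leukocytes, whereas the conjunctiva is a mucosa with resident T cells, macrophages, dendritic cells and mast cells.

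Each cornea library held 10354125 to 14681223 counted reads and each conjunctiva library 10726717 to 14433441. At these depths 3 reads, the limit that a count of 0 allows, equaled between 0.204 and 0.290 RPM (reads per 1000000 counted reads). The Wilson intervals of single libraries and the limits of 3 reads cover counting error only. The 95% intervals of log2 changes come from the standard error of the limma fit, which measures the spread between libraries. The tissue labels fitted their markers: the summed normalized counts of 7 corneal epithelial genes were 482910 to 702695 in cornea libraries, above the 96512 to 147436 of conjunctiva libraries. Of 8 conjunctival epithelial genes, the sums of conjunctiva libraries (29909 to 76789) and cornea libraries (25696 to 63610) overlapped. Normalized counts are reads over a library's size factor, and the authors scaled each tissue in its own table. Levels in the cornea and conjunctiva are therefore given side by side without a test. The diets were compared within each tissue.

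The 3 CD3 genes lie next to each other on mouse chromosome 9 (build GRCm38.p6). *Cd3g*, on the minus strand from 44969572 to 44980431, and *Cd3d*, on the plus strand from 44981769 to 44987052, are transcribed away from each other, with 1337 bases between them. *Cd3e*, on the minus strand from 44998735 to 45009663, follows 11682 bases after *Cd3d*. RefSeq promoter windows of 300 bases (250 before to 50 after the transcript start) were found for 6 of the 9 genes, 7 windows in all, of which 2 overlapping ones belong to *Ptprc*. Those of the CD3 genes and the upstream one of *Ptprc* are printed to show how the neighboring genes differ in letters recognized by the ETS transcription factors, a family that is active in blood cells. Capitals mark AGGAAG on either strand, so that CTTCCT is the same motif read on the other strand. The *Cd3g* window is chr9:44980382-44980681, the *Cd3d* window chr9:44981536-44981835, the *Cd3e* window chr9:45009562-45009861 and the upstream *Ptprc* window chr1:138175256-138175555, each written 5′ to 3′ on the strand of the gene.
Cd3g: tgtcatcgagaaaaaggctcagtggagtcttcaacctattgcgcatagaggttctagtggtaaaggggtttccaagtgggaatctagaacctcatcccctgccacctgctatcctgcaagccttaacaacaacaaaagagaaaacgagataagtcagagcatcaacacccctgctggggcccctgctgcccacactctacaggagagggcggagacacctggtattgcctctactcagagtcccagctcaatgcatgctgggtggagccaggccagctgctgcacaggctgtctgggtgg
Cd3d: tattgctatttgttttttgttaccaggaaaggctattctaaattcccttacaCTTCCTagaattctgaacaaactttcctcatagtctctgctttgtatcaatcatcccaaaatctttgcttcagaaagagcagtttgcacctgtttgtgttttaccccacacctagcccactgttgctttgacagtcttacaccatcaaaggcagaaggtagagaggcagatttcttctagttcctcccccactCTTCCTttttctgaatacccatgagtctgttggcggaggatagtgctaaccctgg
Cd3e: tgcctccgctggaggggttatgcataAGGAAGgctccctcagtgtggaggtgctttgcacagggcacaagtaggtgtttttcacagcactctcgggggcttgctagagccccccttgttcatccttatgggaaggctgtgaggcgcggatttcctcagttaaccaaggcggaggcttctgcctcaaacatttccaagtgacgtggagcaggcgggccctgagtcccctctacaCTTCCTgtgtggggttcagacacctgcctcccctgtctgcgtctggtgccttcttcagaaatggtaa
Ptprc: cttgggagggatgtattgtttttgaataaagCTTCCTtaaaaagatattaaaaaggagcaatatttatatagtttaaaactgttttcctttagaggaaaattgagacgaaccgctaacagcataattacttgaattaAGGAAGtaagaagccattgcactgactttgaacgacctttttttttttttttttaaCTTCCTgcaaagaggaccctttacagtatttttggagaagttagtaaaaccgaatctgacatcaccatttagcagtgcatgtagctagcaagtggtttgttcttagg

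The motif occurred 2 times in the *Cd3d* window, 2 times in the *Cd3e* window and 3 times in the upstream *Ptprc* window. The other *Ptprc* window, chr1:138175077-138175376, held it 1 time. There was no match in the *Cd3g* window, which says only that these letters are absent from its 300 bases. Of all 32851 promoter windows, 35.4% held the motif. TATAAA was in the upstream *Ptprc* window on the strand opposite to the gene, where the printed letters read tttata. It was not in the other *Ptprc* window, and 13.6% of all windows held it. The *Cd79a* window held AGGAAG 1 time and the *Cd8a* window 0 times.

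The lymphocyte genes were at the edge of detection in the cornea. Summed over its 10 libraries, *Ptprc* had 195 reads and the other 8 genes together had 82. *Cd79b* was found in 7 libraries with 42 reads. Each of *Cd3d*, *Cd3e*, *Cd3g*, *Cd4*, *Cd8a* and *Ms4a1* had reads in 1 or 2 libraries only, with 9, 1, 13, 8, 3 and 6 reads. *Cd79a* had 0 reads in all 10 libraries, as did 27.1% of all genes in the cornea table. A mean of at least 10 normalized counts was needed to enter the test of diet, and in the cornea only *Ptprc* reached it.

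**Figure D1:**
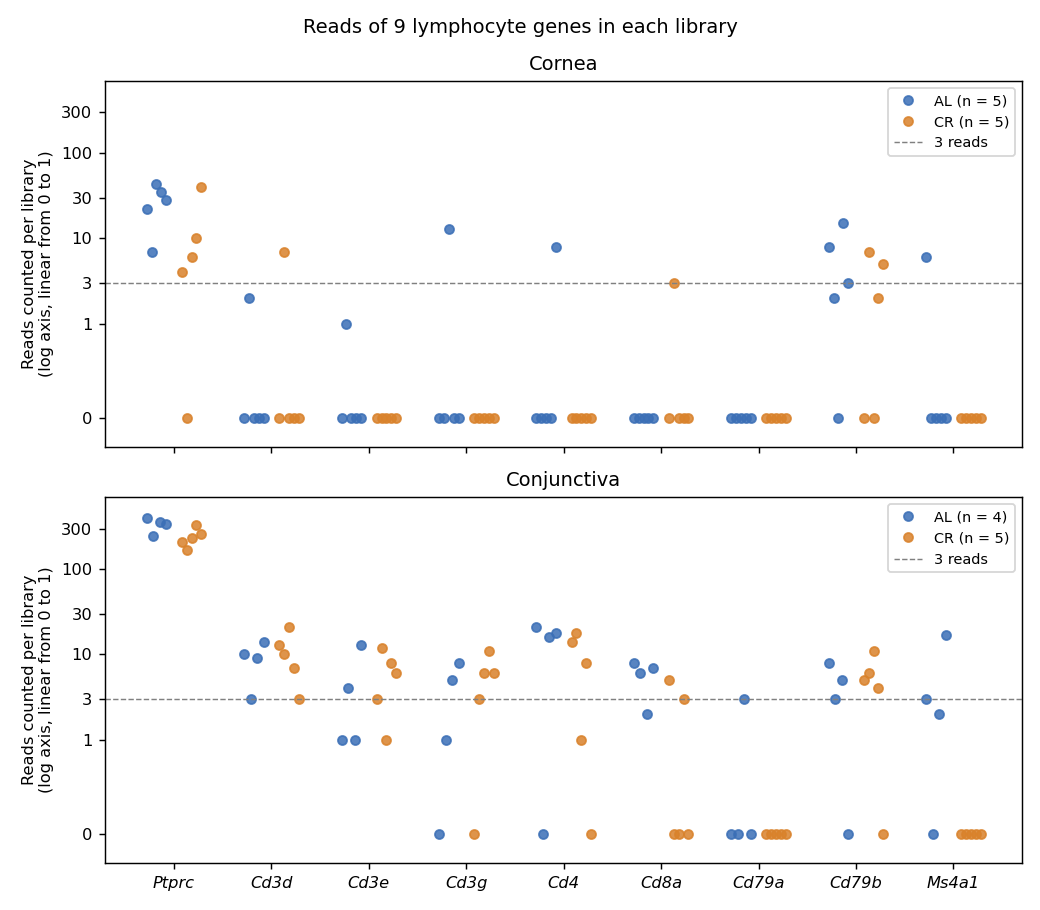
Reads counted for each of the 9 genes (horizontal axis) in each library, on a log axis that is linear from 0 to 1, with AL in blue and CR in orange. The dashed line marks 3 reads. Most points of the cornea lie at 0 for every gene but *Ptprc* and *Cd79b*, whereas in the conjunctiva *Ptprc* had 170 to 394 reads and the other genes at most 21.

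In the conjunctiva *Ptprc* had 2541 reads over 9 libraries and the other 8 genes 373. *Cd3d* and *Cd3e* had reads in 9 of 9 libraries, *Cd3g*, *Cd4* and *Cd79b* in 7, *Cd8a* in 6, *Ms4a1* in 3 and *Cd79a* in 1. *Ptprc* and *Cd4* reached the mean needed for the test. The threshold passed narrowly between neighbors: *Cd4* had a mean of 10.04 normalized counts and *Cd3d*, just below it, had 9.64. Counts of different genes were not divided by transcript length and are not ranked against each other.

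*Ptprc* had a median of 1.47 RPM in the cornea (range 0 to 4.15) and 22.9 RPM in the conjunctiva (range 12.96 to 32.4), and the ranges did not overlap. The medians of *Cd3d* were 0 and 0.762, those of *Cd3e* 0 and 0.373, and those of *Cd3g* 0 and 0.459. *Cd4* had medians of 0 and 1.13 RPM, and *Cd8a* of 0 and 0.230. These T cell genes were thus at 0 in most cornea libraries and present in most conjunctiva libraries. *Cd79b* showed another pattern, with 42 reads in each tissue and medians of 0.227 and 0.404 RPM, and ranges of 0 to 1.14 and 0 to 0.920 that overlapped. *Cd79a* and *Ms4a1* had a median of 0 in both tissues.

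**Figure D2:**
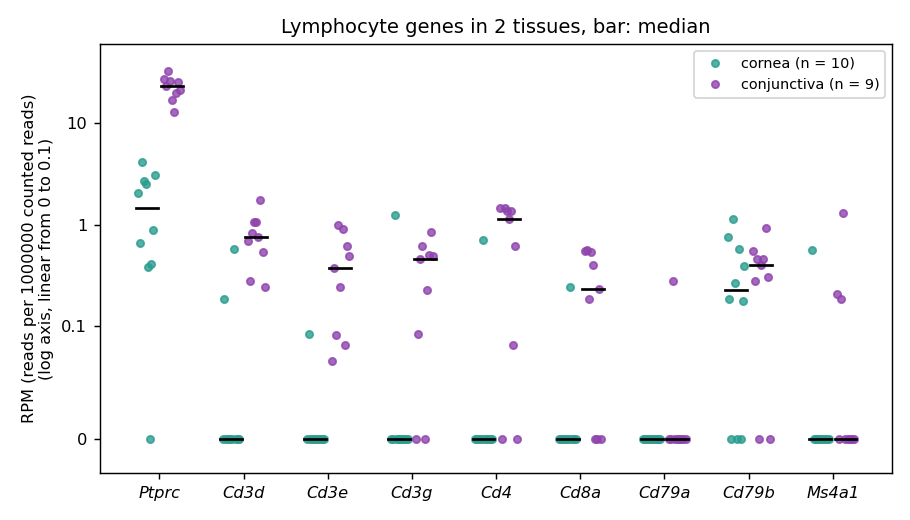
RPM of the 9 genes in the 10 cornea libraries (green) and 9 conjunctiva libraries (purple), on a log axis that is linear from 0 to 0.1, with the median as a black bar. The tissues separate for *Ptprc* and overlap for *Cd79b*. No test was run between tissues.

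*Ptprc*, the CD45 gene, had fewer reads in most CR cornea libraries, but the difference did not pass the test. Cornea AL 1 to 5 had 22, 7, 43, 35 and 28 reads, and CR 1, 2, 3, 4 and 7 had 4, 0, 6, 10 and 40. The AL libraries lay between 7.65 and 46.9 normalized counts and 4 CR libraries between 0 and 10.2, while CR 7 reached 37.1, so that the groups overlapped through AL 2 and CR 7. In CR 7 the 40 reads were 3.10 RPM (95% Wilson interval 2.28 to 4.23), and in AL 2 the 7 reads were 0.654 RPM (0.317 to 1.35). The means were 27.7 ± 14.1 (SD, n = 5) in AL and 11.3 ± 14.9 (n = 5) in CR. The log2 change, on the scale of normalized count + 1, was −1.92 ± 0.86 (SE, 95% interval −3.73 to −0.11). The Benjamini-Hochberg adjusted p in limma was 0.250 over all 12278 genes tested, and the unadjusted limma p was 0.0388. Of all genes tested in the cornea, 53.1% had a negative log2 change, 18.1% had an unadjusted p under 0.05 (9.55% with the lower level in CR), and 1.22% were called at an adjusted p under 0.05 with a fold over 1.5. In an exact two-sided permutation test of the normalized counts, p was 0.135 with all libraries and 0.0317 without CR 7 (difference −22.9).

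In the bulk tissue, fewer leukocytes and less *Ptprc* RNA per cell cannot be told apart. Lacrimal gland genes also had lower values in CR in the same cornea libraries, with 1 called. The summed normalized counts of 12 lacrimal gland genes ran from 114 to 28863 in AL, with a median of 651, and from 48.3 to 411 in CR, and the highest value was that of AL 1. All 8 of these genes that were tested had a negative log2 change, and 1 was called, the odorant-binding gene *Obp1b*. The diets did not overlap for 2 of the 8, against 3.97% of all genes tested in the cornea. *Obp1b* ran from 1.77 to 4826 in AL and was at 0 in CR. *Obp1a* ran from 15.9 to 20439 in AL and from 0 to 5.48 in CR (limma adjusted p = 0.0639). The call of *Obp1b* was lost without any one of AL 2, 3 and 5 and CR 2, 3, 4 and 7, while 3 lacrimal genes were called without AL 4. In the conjunctiva these sums were 138 to 300 in AL and 63.2 to 398 in CR, with 3 genes tested and 0 called, among them *Obp1a* (30.9 ± 10.1 and 0.195 ± 0.436, limma adjusted p = 0.0767). Without AL 1 the change of *Ptprc* was −1.92 (limma adjusted p = 0.397). Genes at 0 made up 38.7 to 45.2% of the table in AL libraries and 39.9 to 47.6% in CR libraries. With that share as a covariate the log2 change of *Ptprc* was −2.27 (limma adjusted p = 0.362).

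In the conjunctiva *Ptprc* was somewhat lower in CR than in AL, again without passing the test. AL 1, 3, 4 and 5 had 394, 246, 353 and 343 reads, and CR 1 to 5 had 209, 170, 234, 331 and 261. In normalized counts AL ran from 276 to 380 and CR from 162 to 339. CR 1, 2 and 3 lay below every AL library, and CR 4 and 5 lay within the AL range. The means were 321 ± 43.1 (SD, n = 4) and 244 ± 70.4 (n = 5), with a log2 change of −0.43 ± 0.21 (SE, 95% interval −0.89 to 0.02) and an adjusted p of 0.540 in limma over 13929 genes (unadjusted p = 0.0599). Of all genes tested in the conjunctiva, 0.359% were called. By exact permutation p was 0.127 for normalized counts, and 0.0317 for RPM (difference −7.97), a scaling under which the median log2 change of all genes moved from −0.02 to −0.10. The change of *Ptprc* between diets differed between conjunctiva and cornea by 1.49 ± 0.89 (SE) on the log2 scale, which was not called (adjusted p = 0.730, limma estimates). Over the 8 titles that both tissues share, without cornea AL 2 and CR 7 and conjunctiva CR 5, it was 2.43 ± 0.65 (unadjusted p = 0.00487, adjusted p = 0.879 in limma). By the methods several tissues were taken from each mouse, but the labels do not say that a shared title marks a mouse.

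**Figure D3:**
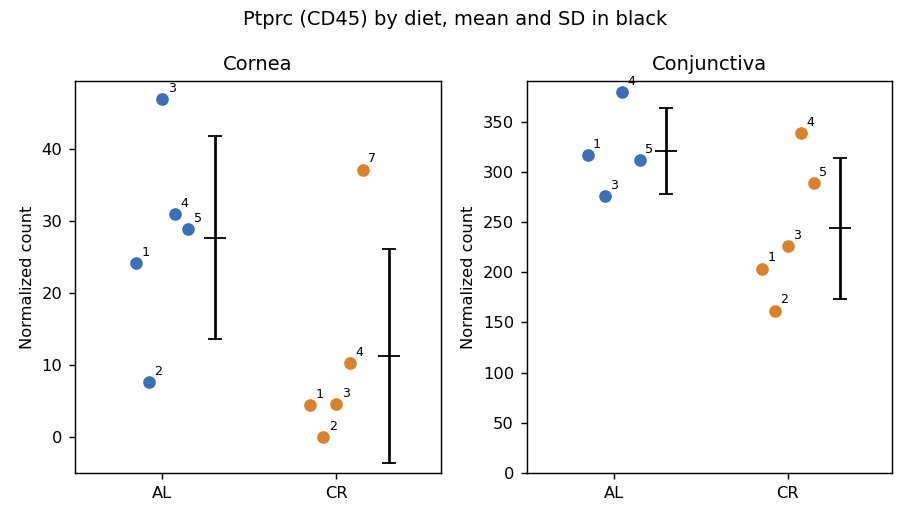
Normalized counts of *Ptprc* by diet in the cornea and conjunctiva, with 1 point a library, its title number beside it, and the mean and SD in black. The vertical axes differ because each tissue was scaled in its own table. CR 7 in the cornea, at 37.1, lies among the AL libraries.

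The CD3 chains were spread over every conjunctiva library and over 3 cornea libraries. *Cd3d*, the delta chain, had 10, 3, 9 and 14 reads in conjunctiva AL 1, 3, 4 and 5 and 13, 10, 21, 7 and 3 reads in CR 1 to 5. *Cd3e*, the epsilon chain, had 1, 4, 1 and 13 reads in AL and 3, 12, 1, 8 and 6 in CR, and *Cd3g*, the gamma chain, had 0, 1, 5 and 8 in AL and 0, 3, 6, 11 and 6 in CR. The diets overlapped for all 3 chains. Mean normalized counts were 8.45 ± 3.91 (SD, n = 4) in AL and 10.6 ± 6.40 (n = 5) in CR for *Cd3d*, 4.54 ± 5.13 and 6.03 ± 4.17 for *Cd3e*, and 3.44 ± 3.45 and 5.31 ± 4.24 for *Cd3g*. The exact permutation p-values were 0.683, 0.651 and 0.492. The sign for *Cd3d* rested on CR 3, its library with 21 reads, without which the difference turned from 2.14 to −0.28.

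Summed over the chains, CD3 had 11, 8, 15 and 35 reads in conjunctiva AL 1, 3, 4 and 5 and 16, 25, 28, 26 and 15 in CR 1 to 5. The highest sum, in AL 5, and the lowest, in AL 3, were both in AL. Without a filter, limma gave log2 changes between 0.22 and 0.55 for the 3 chains, with 95% intervals from −1.25 to 1.69 for *Cd3d*, −1.19 to 2.26 for *Cd3e* and −1.30 to 2.40 for *Cd3g*. These intervals hold both a fall and a rise of more than 2-fold. In the cornea, 13 of the 23 CD3 reads were *Cd3g* reads of AL 3. CR 2 had 7 *Cd3d* reads, and AL 2 had 2 *Cd3d* reads and 1 *Cd3e* read. No cornea library had reads of all 3 chains, and 7 of the 10 had none of them.

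*Cd4*, the coreceptor of helper T cells, varied between libraries of the same diet from 0 to 21 reads. It had 21, 0, 16 and 18 reads in conjunctiva AL 1, 3, 4 and 5 and 14, 18, 1, 8 and 0 in CR 1 to 5. Both diets held a library at 0, and the groups overlapped. The means were 12.6 ± 8.42 (SD, n = 4) and 7.99 ± 7.56 (n = 5) normalized counts, with a log2 change of −0.67 ± 1.24 (SE, 95% interval −3.30 to 1.96) and an adjusted p of 0.907 in limma. The change was −1.71 without AL 3, −0.30 without CR 3 and −0.06 without CR 5. In the cornea all 8 *Cd4* reads fell in AL 5.

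*Cd8a*, the CD8 alpha chain of cytotoxic T cells, had 8, 6, 2 and 7 reads in conjunctiva AL 1, 3, 4 and 5 and 5, 0, 0, 3 and 0 in CR 1 to 5. Every AL library had reads and 3 of 5 CR libraries had none, but AL 4 lay below CR 1 and CR 4, so that the groups overlapped. The means were 5.42 ± 2.18 (SD, n = 4) and 1.59 ± 2.27 (n = 5) normalized counts. The exact permutation test gave p = 0.0476, the lowest of 17 such tests, and 0.573 after Benjamini-Hochberg adjustment over them. On the log2 scale p was 0.0794, and without single libraries it ran from 0.0357 (without AL 4) to 0.107, and leaving out any library other than AL 4 took it above 0.05. In the cornea *Cd8a* had 3 reads in CR 2 and 0 in the other 9 libraries. The change in *Cd8a* differed between tissues by −2.07 ± 0.87 (SE) without a filter (adjusted p = 0.622, limma estimates).

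The B cell genes behaved differently from each other. *Cd79b*, the Ig-beta chain, had 8, 2, 0, 15 and 3 reads in cornea AL 1 to 5 and 0, 7, 0, 2 and 5 in CR 1, 2, 3, 4 and 7. In the conjunctiva it had 8, 3, 5 and 0 reads in AL 1, 3, 4 and 5 and 5, 6, 11, 4 and 0 in CR 1 to 5. Each of the 4 groups held at least 1 library at 0, and the diets overlapped in both tissues. Mean normalized counts in AL and CR were 5.47 ± 5.44 and 2.66 ± 2.91 in the cornea (n = 5 and 5, exact permutation p = 0.341) and 3.79 ± 2.83 and 5.06 ± 3.80 in the conjunctiva (n = 4 and 5, exact permutation p = 0.619). Without conjunctiva CR 3 the difference in that tissue turned from 1.27 to −0.12.

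*Cd79a*, the Ig-alpha partner of *Cd79b*, had 3 reads in all, each in conjunctiva AL 4. *Ms4a1*, the CD20 gene, had 3, 0, 2 and 17 reads in conjunctiva AL 1, 3, 4 and 5 and 0 in all 5 CR libraries. The group means were 5.002 ± 7.05 (SD, n = 4) normalized counts and 0 (n = 5), with p = 0.0952 in the exact permutation test, and AL 3 at 0 overlapped with CR. That exact permutation p was 0.0357 without AL 3, 0.214 without AL 1, AL 4 or AL 5, and 0.143 without any one CR library. Pooled over libraries, *Ms4a1* had 0.447 RPM in AL, 9.36-fold the level of 3 reads over the CR group, the limit that 0 counts allow. Of its 22 reads, 17 came from AL 5, and without AL 5 the ratio fell to 2.90-fold, from 5 reads. These ratios leave out the counting error of AL and the spread between its libraries. They are not lower bounds of the change. AL 5 was also the library with the most CD3 reads, while its *Cd79b* count was 0. In the cornea all 6 *Ms4a1* reads were in AL 1, the library with the highest lacrimal gland sum and with 8 *Cd79b* reads. The part of lacrimal gland RNA in these reads was not tested.

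Conjunctiva AL 4 was the 1 library with reads of all 9 genes. The other conjunctiva libraries had reads of 4 to 7 genes, with CR 5 the lowest. In the cornea the number ran from 1 gene, in CR 1 and CR 3 where *Ptprc* was alone, to 4 genes in AL 2. Cornea CR 2 ran against the other libraries: it was the 1 library with 0 *Ptprc* reads, yet it held 17 reads of *Cd3d*, *Cd8a* and *Cd79b*, more reads outside *Ptprc* than in any other cornea library. By exact permutation over the 17 tests, the smallest p that cornea groups allow was 0.00794, and 0.0159 for conjunctiva groups. *Cd79a* in the cornea, at 0 throughout, was not tested. Without a filter, limma called 0 of the 8 genes with reads in the cornea and 0 of 9 in the conjunctiva, against 0.575% and 0.238% of all genes. An unadjusted p under 0.05 was reached by *Ptprc* in the cornea (0.0304) and by *Ms4a1* (0.0190, log2 change −1.87) and *Cd8a* (0.0385, −1.68) in the conjunctiva, against 14.9% and 8.53% of all genes.

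Wider gene lists showed how far the tables reached into each lymphocyte class. Of 27 further T cell genes, 24 were analysed, 8 had reads in every conjunctiva library and 8 were tested there. Of these 8, 5 had a positive and 3 a negative log2 change, with a median of 0.11 against −0.02 over all genes, and 0 were called. *Bcl11b*, a factor for T cell commitment that epidermal keratinocytes also express, was at 465 ± 74.5 normalized counts in AL and 954 ± 402 in CR (log2 change 0.94 ± 0.27, limma adjusted p = 0.212). *Tcf7*, another T cell transcription factor, had a log2 change of 0.57 and *Icos*, a costimulatory receptor, of −0.46, with adjusted p of 0.747 and 0.770. In the cornea 1 of the 24 genes had reads in every library, 3 were tested and 0 were called. Their log2 changes were −2.96 for *Icos*, 0.25 for *Bcl11b* and −0.03 for *Cd5*, a T cell surface receptor, and the limma adjusted p-values ran from 0.331 to 0.993. *Icos* was at 78.0 ± 41.2 in cornea AL (range 8.84 to 111) and 38.6 ± 59.1 in CR (range 0 to 136). The diets thus overlapped, and its highest library was in CR.

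Genes of gamma-delta T cells and innate lymphoid cells had a median log2 change of 0.12 in the conjunctiva (6 tested) and 0.21 in the cornea (4 tested), and 0 were called in either tissue. *Il17re*, a receptor chain for interleukin-17C that epithelial cells also express, was at 1218 ± 51.2 in conjunctiva AL and 1459 ± 266 in CR, and at 1385 ± 80.5 and 1633 ± 214 in the cornea (adjusted p = 0.638 and 0.276). *Zbtb16* (PLZF), a factor of innate-like T cells, had a log2 change of 0.67 in the conjunctiva and −0.29 in the cornea. Of 16 natural killer and cytotoxic genes, 8 were tested in the conjunctiva, with a median of −0.28 and 0 called, and none in the cornea. The changes of the killer receptor *Klrd1* (1.69), the granule protein gene *Nkg7* (−0.96) and the chemokine gene *Xcl1* (−0.96) had adjusted p of 0.608 to 0.813 in limma. The list sums of these cytotoxic genes were 167 to 307 normalized counts in conjunctiva AL and 120 to 334 in CR, and 6.60 to 12.4 and 9.86 to 40.9 in the cornea.

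Further B cell genes mostly had negative log2 changes in the conjunctiva, and 0 were called. Of 19 listed, 16 were analysed and 8 tested, 7 with a negative log2 change, against 52.0% of all genes tested. The median was −0.42. *Pou2af1*, the B cell coactivator OBF-1, was at 26.0 ± 11.2 in AL and 5.87 ± 3.41 in CR, and the groups did not overlap (log2 change −2.08 ± 0.76, limma adjusted p = 0.355). Groups that did not overlap were found for 3.87% of all genes tested in the conjunctiva and 3.97% in the cornea. *Bank1*, an adaptor of the B cell receptor, was at 35.8 ± 13.1 and 15.1 ± 12.9 (adjusted p = 0.488), and *Blnk*, another adaptor, at 448 ± 60.2 and 568 ± 97.2 (adjusted p = 0.541). In the cornea the 3 tested genes, *Btk*, *Cr2* and *Blnk*, had negative changes with a median of −2.21, and their adjusted p ran from 0.370 to 0.738. *Btk* is a kinase of the B cell receptor and *Cr2* a complement receptor, and both had libraries at 0 reads. Of 10 plasma cell genes 5 were analysed and 1 tested, *Jchain*, which links secreted IgA and IgM: it was at 83.1 ± 89.9 in conjunctiva AL and 24.4 ± 9.63 in CR (adjusted p = 0.718). The listed constant region genes of the antigen receptors had no values under their symbols in either tissue and so could not be analysed.

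Antigen receptor signaling genes, many of which are shared with other cells, had a median log2 change of −0.07 in the conjunctiva (20 tested) and 0.11 in the cornea (15 tested), and 0 were called. *Syk*, the kinase that Ig-alpha and Ig-beta recruit and that Fc receptors of myeloid cells also use, was at 239 ± 43.8 in conjunctiva AL and 117 ± 28.1 in CR, without overlap (−1.03 ± 0.23, limma adjusted p = 0.0714). In the same tissue *Nfatc2*, a calcium-regulated transcription factor, had a log2 change of 0.41 and *Malt1*, a protease of the NF-kappaB pathway, of −0.29, with adjusted p of 0.653 and 0.671. In the cornea the values were −0.60 for the phosphatase gene *Ptpn6*, 0.26 for *Cd81*, a widely expressed tetraspanin, and 0.34 for *Bcl10*, a partner of *Malt1* (adjusted p = 0.0987, 0.220 and 0.295).

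Like *Ptprc*, most markers of other leukocytes had negative log2 changes in the conjunctiva. Of 20 pan-leukocyte genes, 18 had a negative log2 change, with a median of −0.55, 6 had an unadjusted p under 0.05 and all 6 were lower in CR, against 9.40% of all genes in either direction and 4.87% lower in CR, and 0 were called. The integrin adaptor *Fermt3* was at 573 ± 128 in AL and 363 ± 78.6 in CR, the lysosomal protein gene *Laptm5* at 565 ± 102 and 352 ± 119, and the GTPase gene *Rac2* at 132 ± 22.5 and 51.6 ± 29.2, with limma adjusted p of 0.191, 0.229 and 0.233. The list sums were 4132 to 4654 in AL and 2823 to 3897 in CR and did not overlap. All 14 macrophage genes had a negative change, with a median of −0.50, 8 of them at an unadjusted p under 0.05 and 0 called. *C1qa*, *Mrc1* and *Adgre1* had changes of −0.63, −0.79 and −1.43, with adjusted p of 0.103, 0.152 and 0.155. Macrophage sums were 5319 to 6607 in AL and 3875 to 5193 in CR.

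Of dendritic and Langerhans cell genes tested in the conjunctiva, 8 of 8 had a negative log2 change, with a median of −0.90, and 2 were called. *Cd74*, the invariant chain of MHC class II that B cells also express, fell from 1500 ± 234 to 819 ± 28.8 (−0.86 ± 0.14, limma adjusted p = 0.00742), and *Cd209a*, a dendritic cell lectin, from 87.4 ± 20.8 to 20.9 ± 11.9 (−2.13 ± 0.43, adjusted p = 0.0404). Their list sums were 1479 to 2083 in AL and 906 to 1010 in CR. The count of called genes fell from 2 to 1 without any one of AL 1, 3, 4 and 5 and CR 1, 2 and 4, and to 0 with the replicate number as a block. *Cd207*, the langerin gene of Langerhans cells, had 2 reads in 1 AL library and 0 in every other conjunctiva library. Of 6 mast cell genes 5 had a negative change, with a median of −1.14, and the protease gene *Mcpt4* was called (223 ± 84.1 and 68.5 ± 25.7, adjusted p = 0.0445). No mast cell gene was called without any one of AL 1, 4 and 5 and CR 1, 2 and 4, and 3 were called without AL 3. Neutrophil genes had a median of 0.27 (4 tested, 0 called). *Ltf*, the gene of lactoferrin, which lacrimal and mucosal glands also secrete, was at 315 ± 52.3 in AL and 760 ± 254 in CR (1.20 ± 0.25, limma adjusted p = 0.0682). The chemokine receptor gene *Cxcr2* had a change of 2.50 and *Retnlg* of −0.84 (adjusted p = 0.540 and 0.802), and *Ly6g*, *Mpo* and *Elane* were at 0 in every conjunctiva library. The part of these cell types in the values of *Ptprc*, *Cd4* and *Cd8a* was not tested.

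In the cornea 8 of 9 macrophage genes had a negative change, with a median of −0.38, and the complement gene *C1qa* was called (61.1 ± 15.5 and 20.5 ± 8.32, limma adjusted p = 0.0467). That call was lost without any one of AL 1, 2, 3 and 5 and CR 2, 3 and 7, and also with voom, quantile normalization, no filter, the covariate or the replicate block. Of 8 pan-leukocyte genes tested 5 had a negative change, with a median of −0.40 and 0 called. *Cytip*, an adhesion regulator of lymphocytes and dendritic cells, was at 35.6 ± 21.3 and 5.86 ± 4.56 (adjusted p = 0.115). Cornea CR 7, the CR library with the most *Ptprc*, also had the highest CR sum of the macrophage list (841), the dendritic cell list (148) and the neutrophil list (689). CR 7 also had the highest conjunctival epithelium sum of the cornea libraries (63610, against a CR median of 31361) and the lowest corneal epithelium sum (482910). *Krt13*, the largest gene of the conjunctival list, had AL means of 27224 in the cornea and 21937 in the conjunctiva. *Krt4*, the next largest in the cornea, had AL means of 3360 and 14488. The mucin gene *Muc5ac* was at most 6.57 in CR cornea libraries and at least 2328 in CR conjunctiva libraries. The part of conjunctival tissue in the *Ptprc* reads of CR 7 was not tested. Dendritic cell genes had a median of −1.79 (2 tested), neutrophil genes of −0.66 (2 tested), and 0 were called in either list. The cytokine receptor gene *Flt3* had a change of −2.75 and *Cd74* of −0.82 (limma adjusted p = 0.173 and 0.314), and *Mmp8*, a neutrophil collagenase gene, of −1.35 and *Ltf* of 0.03 (0.588 and 0.983). Mast cell genes were too low to test. Of the epithelial lists 0 genes were called. Their median log2 change was 0.02 for corneal and 0.55 for conjunctival epithelial genes in the cornea, and 0.18 and 0.02 in the conjunctiva. In the cornea the conjunctival genes with the smallest p were *Krt4* (0.96), *Agr2* (1.05) and *Krt8* (0.64), with limma adjusted p of 0.137, 0.259 and 0.281.

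**Figure D4:**
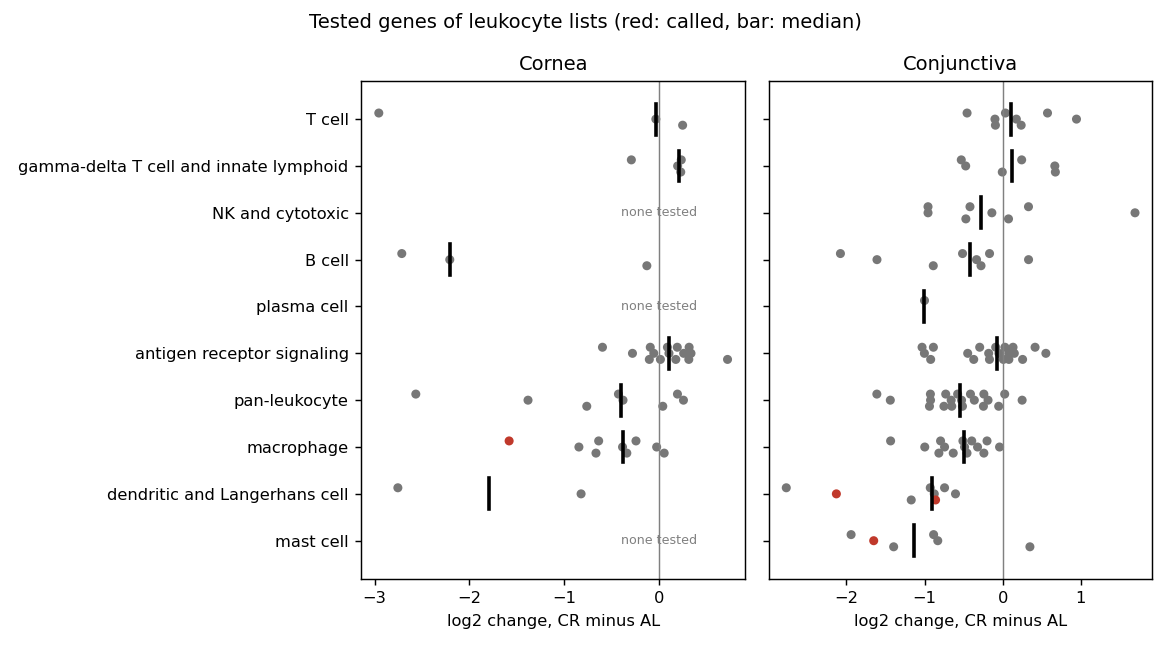
log2 change (CR minus AL) of each tested gene of 10 leukocyte lists in the cornea and conjunctiva, with called genes in red and the median of the list as a black bar. In the conjunctiva the medians of T cell and innate lymphoid genes lie near 0 (0.11 and 0.12). Those of B cell and natural killer genes were −0.42 and −0.28, and the 1 plasma cell gene tested had a negative change. The medians of pan-leukocyte, macrophage, dendritic and mast cell genes lie between −0.50 and −1.14. Receptor signaling genes had a median of −0.07. Neutrophil genes, which are not drawn, had a median of 0.27.

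The genes whose normalized log2 values were most like those of a lymphocyte gene over the libraries of a tissue were listed as a description. In the cornea these were *Prelp* (Pearson r = 0.928), *Btbd11* (0.926) and *Cd74* (0.921) for *Ptprc* over 10 libraries, out of 12277 genes compared. In the conjunctiva they were *Ing5* (0.962), *Dpy19l1* (0.935) and *Flrt1* (0.931) for *Ptprc*, and *Ucp2* (0.958), *Haspin* (0.945) and *Ccdc57* (0.944) for *Cd4*, over 9 libraries and out of 13927 genes. The libraries share their diets, depths and scaling, and no test was made of these correlations.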

How the data were processed

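Gene-level values of 19 libraries were analysed. By the study's methods, the authors trimmed single reads with cutadapt, aligned them to mm10 with STAR, counted them with HTSeq and scaled them with DESeq2, while the submitters' processing notes name GRCm39. The deposited values are log2 of the count divided by a size factor, plus 1, made for each tissue separately. The labels name a stranded kit and the methods an oligo(dT)-primed kit, so that strand use is unknown and reads of *Cd3e* and *Ms4a1* and their antisense partners cannot be told apart. Reads were recovered from the values (100% whole within 0.01), and 5 repeated symbols were left out. All columns were matched to a library.

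Diets were compared with limma 3.58.1 in R 4.3.3 (trend, robust, pseudocount 1) for genes whose normalized counts averaged 10 or more. Genes were called at a Benjamini-Hochberg adjusted p under 0.05 and a fold over 1.5. Such folds come from averaged log2 values. For low genes the pseudocount shrinks them, while libraries without reads can push them beyond the ratio of the group means. For single genes, exact permutation tests (two-sided) were run in scipy 1.17.1. The study's legends count the libraries of a group as mice, while the labels do not say that each came from its own mouse, and p-values measure the spread between these libraries. The genes and the 14 lists (T cell, gamma-delta T and innate lymphoid, natural killer, B cell, plasma cell, receptor signaling, pan-leukocyte, macrophage, dendritic, neutrophil, mast cell, lacrimal, corneal and conjunctival) were chosen with earlier results of these data known. All 9 genes were named, and from each list its called genes or otherwise up to 3 with the smallest p. The fit was tested on simulated counts of genes averaging 10 or more, with the same dispersion for all. It called 77.55% (cornea) and 78.57% (conjunctiva) of log2 changes of 1, and 100% of those of 2. This does not cover genes below that mean or with a wider spread. Alternatives were other pseudocounts, filters, scalings, weights, voom, a covariate, a replicate block and leaving out each library.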

Additional observations from a re-analysis of the deposited data

Results flagged for a closer look

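Of 27 groups of 4 or 5 libraries in which a lymphocyte gene had reads, 12 held a library that stood apart from the rest. In 8 of them the reads were in 1 library only, where the gap fills the range by construction, so that the rate of about 1 in 20 that chance gives does not apply to them. In the cornea these were *Ptprc* in CR 7 (37.1 normalized counts, 40 reads, next highest 10.2), *Cd3d* in AL 2 (2.18, 2 reads) and in CR 2 (6.60, 7 reads), *Cd3e* in AL 2 (1.09, 1 read), *Cd3g* in AL 3 (14.2, 13 reads), *Cd4* in AL 5 (8.24, 8 reads), *Cd8a* in CR 2 (2.83, 3 reads) and *Ms4a1* in AL 1 (6.60, 6 reads). For these genes other than *Ptprc* the remaining libraries of the group were at 0.

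In the conjunctiva *Cd4* in AL 3 was at 0, with the next lowest at 16.4, and *Cd8a* in AL 4 was at 2.15, with the next lowest at 6.36. *Cd79a* in AL 4 stood at 3.23 (3 reads), with the other AL libraries at 0, and *Ms4a1* in AL 5 stood at 15.4 (17 reads), with the next highest at 2.41.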

How the results depend on the processing

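No lymphocyte gene that was tested was called under any of 21 alternatives in the cornea or 20 in the conjunctiva. In most of these only *Ptprc* was tested in the cornea (8 genes without a filter) and 1 to 3 genes in the conjunctiva (7 with a filter at a mean of 3, 9 without a filter). The log2 change of *Ptprc* stayed negative throughout: it ran from −2.55 (without CR 7) to −1.24 (without CR 2) as cornea libraries were left out and to −0.96 with a pseudocount of 10, with adjusted p from 0.0788 to 0.455, and in the conjunctiva from −0.60 to −0.30, with adjusted p from 0.180 to 0.792. A filter at a mean of 50 left the cornea without a value for *Ptprc*. As libraries were left out, the difference (CR minus AL, normalized counts) ran from −0.44 to 1.32 for cornea *Cd3d* (0.88 with all, negative without CR 2), from −0.28 to 3.96 for conjunctiva *Cd3d* (negative without CR 3) and from −0.12 to 2.53 for conjunctiva *Cd79b* (negative without CR 3). Exact permutation tests under 0.05 numbered 0 in the cornea and 1 without CR 7. In the conjunctiva they numbered 1, became 2 with RPM and 0 on the log2 scale, and ran from 0 to 1 as libraries were left out. The genes called over the whole table moved more: 150 in the cornea became 705 with array weights, 99 with voom, 62 with each library's share of genes at 0 added to the model, and 53 to 536 as libraries were left out (536 without AL 4 and 309 without CR 1). The 50 in the conjunctiva became 149 with array weights and 26 to 127 (127 without CR 3). RPM scaling split the conjunctiva calls into 22 higher and 24 lower, against 31 and 19. Of the called list genes, *C1qa*, *Obp1b*, *Cd209a* and *Mcpt4* had adjusted p between 0.0378 and 0.0467, and the calls of their lists ran from 0 to 2 (macrophage, cornea), 0 to 3 (lacrimal gland, cornea), 0 to 2 (dendritic cell, conjunctiva) and 0 to 3 (mast cell, conjunctiva). After the mean of its diet was subtracted from each gene, same-numbered AL and CR libraries had correlations of −0.30 to 0.29 (cornea) and −0.06 to 0.05 (conjunctiva). Pairs with different numbers were not compared, so these values do not settle whether the numbers pair the libraries. With the number as a replicate block, 46 genes were called in the cornea and 10 in the conjunctiva, and the change of *Ptprc* was −2.49 (adjusted p = 0.246) and −0.30 (0.747). The causes of these shifts were not tested. Genes with a few reads a library have wide counting intervals. The part of counting error in their differences between diets was not tested. Libraries of 1 diet differed beyond their counting intervals, such as cornea CR 7 and CR 1 for *Ptprc* and conjunctiva AL 1 and AL 3 for *Cd4*.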
